A study of Homo sapiens with 6 samples.

Results

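Amino acid transporter solute carriers were examined as a set of 40 genes, the members of the SLC1, SLC3, SLC7, SLC36, SLC38 and SLC43 families, taken by gene symbol from a table of 58830 genes. Of these 40 genes, 29 had at least 1 TPM in at least 3 of 6 libraries and were tested, as were 17711 genes of the whole table. The other 11 members lay under that limit. TPM is a read count scaled for gene length and for the total of the library, so TPM of different genes can be set side by side.

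The libraries came from cells of the human embryonic stem cell line HuES8 taken through 3 days of differentiation towards definitive endoderm, the germ layer that gives rise to gut, liver and pancreas. All groups share this line and the one culture protocol in the labels, DMEM-F12 with 0.2% BSA, with 100 ng/mL Activin A throughout and 2.5 µM CHIR, an activator of Wnt signalling, on day 1. One group of 3 libraries was wild type (DE). The other group of 3 carried a knockdown of GATA6-AS1 (KD), the long noncoding RNA read from the strand opposite GATA6, a transcription factor of endoderm. The labels name neither the means of knockdown nor a control construct. Nothing in the labels tells whether each replicate was grown separately, and the p-values below cover the spread among these libraries alone, and that spread may be technical.

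Cells take up and exchange amino acids through carriers that differ in substrate and driving force. SLC1 proteins are sodium-coupled carriers of glutamate and aspartate or exchangers of small neutral amino acids, and SLC38 proteins move glutamine and other small neutral amino acids with sodium. Most SLC7 proteins are light chains that reach the membrane only when bound to a heavy chain, SLC3A2 (4F2hc, CD98) or SLC3A1 (rBAT), while the CAT proteins of the same family carry arginine and lysine alone. SLC43A1 and SLC43A2 are uniporters of large neutral amino acids, and SLC36 proteins move small amino acids with protons. Pluripotent stem cells and their early derivatives depend on the supply of glutamine, methionine and other essential amino acids.

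GATA6-AS1 stood at 388.5, 421 and 313 TPM in DE against 179.7, 163 and 126 TPM in KD, which differ by -1.26 on the log2 scale (SE 0.164, limma adjusted p = 0.0128). The groups did not overlap, and the mean in KD was 0.418 of that in DE. The 2-sided exact permutation test gave p = 0.1, the smallest that 3 against 3 libraries allow. Without DE replicate 1 the log2 change was -1.22 (limma adjusted p = 0.0717), and without KD replicate 2 it was -1.30 (limma adjusted p = 0.0612).

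Several features of the libraries bear on all values below. Transcripts of the mitochondrial genome took between 24.6% and 28.8% of TPM in replicates 1 and 2 of both groups and 38.04% and 36.2% in replicate 3 of DE and KD. Replicate 3 was the lowest library of both groups for 22 of the 29 tested members (75.9%) and for 60.8% of all tested genes. Estimated depths ran from 18641289 to 24510574 reads over 37138 matched genes, so 1 TPM of a 2 kb gene stood for 11.3 to 16.2 reads. Of 8 markers of definitive endoderm, 4 fell in KD (8 with the replicate number as a block), and their summed level was 24625 to 28237 TPM in DE against 17855 to 19647 TPM in KD. Of 7 markers of pluripotent stem cells, 5 rose (6 with the block), with sums of 1782 to 2326 TPM in DE against 2632 to 3080 TPM in KD, so both sets were present in both groups. In this bulk RNA, fewer cells of a type and less RNA per cell cannot be told apart. Among markers of mesoderm 2 of 5 tested rose (T and KDR). Only these had a log2 change above 0, and the median of the 5 was -0.06. Of the markers of trophoblast and amnion GATA3 fell (with the block also ISL1). No tested marker of neuroectoderm or fibroblast feeders passed. The sums of these 4 lists were 1925 to 2277 TPM in DE against 1992 to 2086 TPM in KD for mesoderm, 116 to 160.0 and 162 to 184 TPM for neuroectoderm, 46.8 to 52.7 and 21.0 to 27.1 TPM for trophoblast and amnion, and 31.7 to 42.3 and 28.7 to 40.2 TPM for feeders. No marker was at 0 in all 6 libraries, and MESP1, SOX1, CDX2, TFAP2A, KRT7, COL3A1, DCN and LUM stayed under 1 TPM in every library.

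In KD, 2 of the 29 tested members rose and none fell. SLC1A3 (EAAT1), a sodium-coupled glutamate and aspartate carrier best known from astrocytes, rose 3.27-fold, and SLC7A8 (LAT2), a light chain for large and small neutral amino acids, rose 1.47-fold. Across all tested genes limma with group as its only term called 1.77% higher and 1.5% lower in KD at an adjusted p under 0.05, against 6.9% and 0% of the members. At an unadjusted p under 0.05, limma gave 4 members higher and 4 lower, against 7.27% and 8.15% of all tested genes. In either direction these were 27.6% of the members against 15.4% of all tested genes. SLC36A2 is among the 4 lower and in that share of the members, with the limit given below. With the replicate number as a block, 4 members were higher (13.8%) and 1 was lower (3.45%), against 5.88% and 6.62% of all tested genes. The members added by the block were SLC1A5 and SLC43A2 on the higher side and SLC7A3 on the lower side. Groups did not overlap for 4 members higher in KD (SLC1A3, SLC7A8, SLC43A2 and SLC7A1; 13.8%) and 2 lower (SLC7A3 and SLC36A2; 6.9%), against 10.1% and 10.7% of all tested genes. SLC36A2 reached 1 TPM in the DE libraries alone, so it could enter the test only by being higher in DE, and its place among the lower members supports nothing. The shares without overlap lie near those of all genes, and each share of the members rests on 4 genes or fewer.

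The balance of higher and lower members moved with the scaling of the libraries. Quantile normalization called 3 higher and 4 lower, against 4.86% and 4.94% of all tested genes. Median-ratio scaling called 4 and 3, against 5.06% and 4.84%, and TPM recomputed without mitochondrial genes also called 4 and 3, against 4.98% and 4.64%. With each of these scalings SLC1A3, SLC1A5 and SLC43A2 were higher and SLC7A3, SLC7A6 and SLC36A2 were lower, while SLC7A8 was called only with the last of them. Without SLC36A2, for the reason just given, the lower members numbered 3, 2 and 2. SLC36A1 was lower with the first alone and SLC38A1 higher with the second alone. The median log2 change of the 29 members was 0.10 and that of all tested genes -0.01, with 58.6% of the members and 49% of all tested genes above 0.

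**Figure D1:**
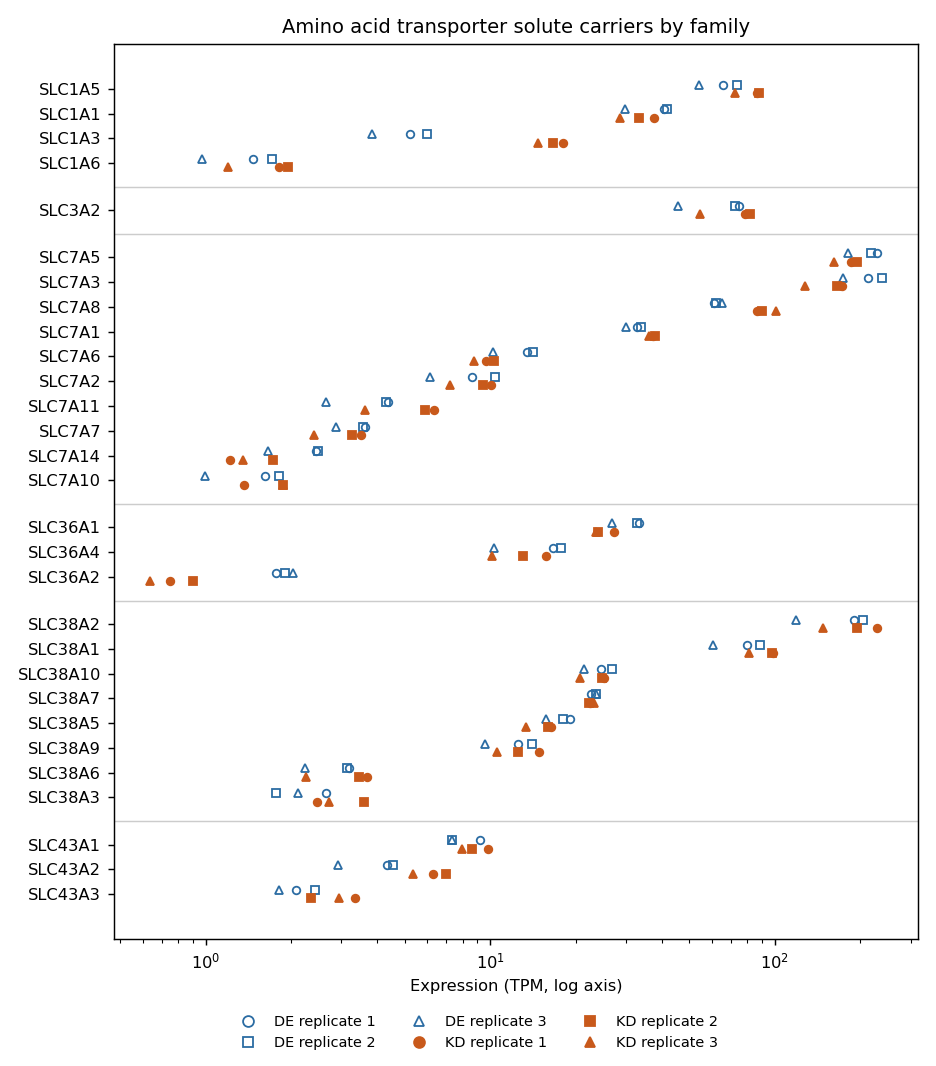
Expression of the 29 tested solute carriers in each library, in TPM on a log axis, grouped by family; open blue symbols are DE and filled orange symbols KD, with a circle, square and triangle for replicates 1, 2 and 3. SLC7A5, SLC7A3 and SLC38A2 lie highest, at 118 TPM or above in every library, and SLC1A3 is the gene whose groups stand farthest apart.

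Expression was concentrated in few carriers. The 40 members summed to 1181, 1233 and 915 TPM in DE against to 1213, 1174 and 976 TPM in KD, so replicate 3 was the lowest in each group and the groups overlapped. The 5 members with the highest mean made up 63.2% to 65.8% of that sum and the 10 highest made up 85.4% to 86.4%. In order of the mean over 6 libraries, these were SLC7A5 at 195 TPM, SLC7A3 at 181 TPM, SLC38A2 at 180.5 TPM, SLC38A1 at 84.4 TPM, SLC7A8 at 77.6 TPM, SLC1A5 at 73.6 TPM, SLC3A2 at 67.9 TPM, SLC1A1 at 35.3 TPM, SLC7A1 at 34.6 TPM and SLC36A1 at 27.9 TPM. They are followed by SLC38A10 at 23.8 TPM and SLC38A7 at 22.9 TPM. Compared within each library, SLC38A2 was the lowest of the first 3 in every DE library and SLC7A3 the lowest in every KD library. The order of the remaining pair changed between libraries of the same group, so it is not fixed by these data. The leading genes thus include a carrier for large neutral, one for cationic and one for small neutral amino acids.

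The acidic amino acid carriers of the SLC1 family held the largest change among the members. SLC1A3 was at 5.24, 6.02 and 3.83 TPM in DE against 17.98, 16.6 and 14.7 TPM in KD, or 5.03 ± 1.11 and 16.4 ± 1.64 TPM (SD, n = 3 each). The lowest KD library lay above the highest DE library by more than the whole spread of either group. The log2 change of TPM + 1 was 1.54 (SE 0.166, 95% interval 1.15 to 1.93, limma adjusted p = 0.00619). About 235, 242 and 155 reads stood behind the DE values and 635, 677 and 745 behind the KD values. The call held in all 18 alternative analyses, with log2 changes from 1.39 to 1.72 and limma adjusted p from 0.000138 to 0.0482. Of the 7 pluripotency markers 6 had a log2 change above 0, and none of the 8 endoderm markers did. Their sums are given above, and their part in this result was not tested.

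SLC1A1 (EAAT3), which carries glutamate, aspartate and cysteine, was the most abundant acidic carrier, with 40.9, 41.7 and 29.7 TPM in DE against 37.6, 33.3 and 28.5 TPM in KD. These groups overlapped, and the log2 change was -0.16 (95% interval -0.55 to 0.23, limma adjusted p = 0.786). The ratio of SLC1A3 to SLC1A1 within a library was 0.128, 0.144 and 0.129 in DE and 0.478, 0.498 and 0.516 in KD. SLC1A1 was the more abundant of the pair in every library, and the ratio ranges did not overlap between groups. Ratios here and below were chosen after the values were seen and are descriptions without a test. SLC1A6 (EAAT4) had 1.38 ± 0.376 TPM in DE against 1.65 ± 0.399 TPM in KD (SD, n = 3 each) and did not pass. SLC1A2 (EAAT2), SLC1A7 (EAAT5) and SLC7A13, an acidic carrier of the SLC7 family, were not tested, with highest values of 1.37, 0.0852 and 0.137 TPM.

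SLC1A5 (ASCT2) exchanges glutamine and small neutral amino acids and is a main route of glutamine into dividing cells. It was at 65.99, 73.9 and 54.3 TPM in DE against 86.9, 88.1 and 72.6 TPM in KD. The lowest KD library fell just under the highest DE library, so the groups overlapped. The log2 change of 0.35 (SE 0.140) did not pass (limma adjusted p = 0.289) and passed with the replicate block (limma adjusted p = 0.0172). Antisense and neighbouring genes share 23.8% of the exon bases of SLC1A5, and as no source used here gives the strand setting, reads of those bases could not be assigned. SLC1A4 (ASCT1), its relative, reached 0.403 TPM at most and was not tested. SLC7A10 (Asc-1), another exchanger of small neutral amino acids, had 1.47 ± 0.423 TPM in DE against 1.70 ± 0.291 TPM in KD (SD, n = 3 each).

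**Figure D2:**
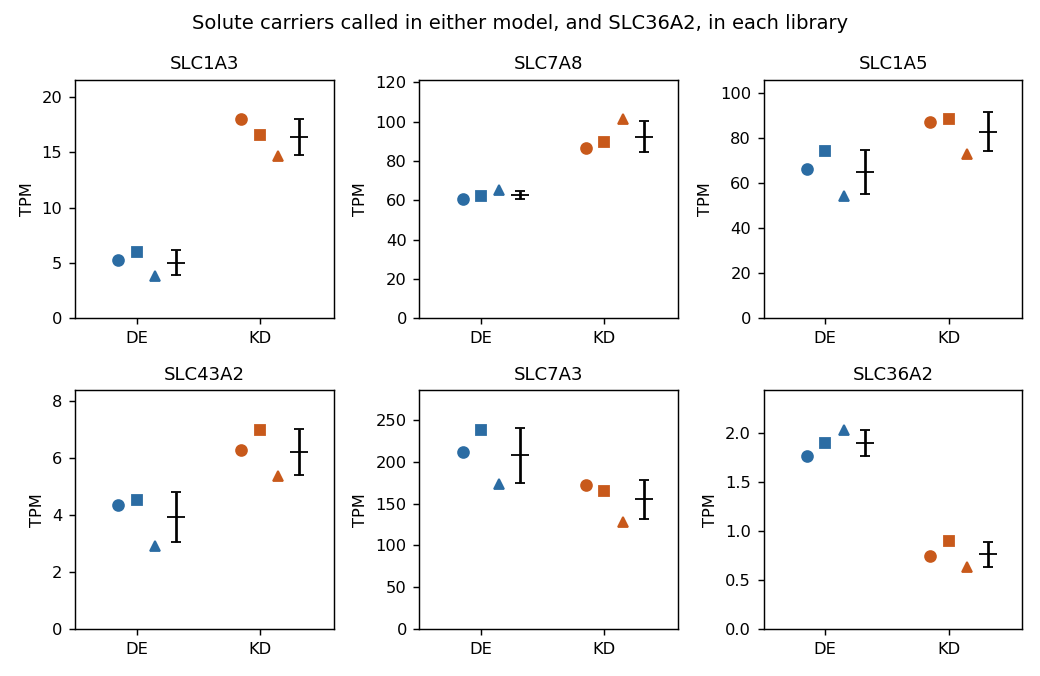
TPM in each library for the 5 solute carriers called with or without the replicate block, and for SLC36A2; circle, square and triangle are replicates 1, 2 and 3, and the black bar is the group mean with SD (n = 3). SLC1A3 runs from 3.83 to 6.02 TPM in DE against from 14.7 to 17.98 TPM in KD, while the groups of SLC1A5 overlap.

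Sequence around the start sites is shown for the members that changed and for carriers with a match to the amino acid response element, a motif bound by ATF4 when amino acids are short. RefSeq windows of 300 bases (250 before and 50 after a start, build GRCh38.p14) were found for 31 of the 40 members, 53 windows in all, and were searched on both strands for TGATGNAA and for the GATA motif, the letters GATA with A or T before them and A or G after them. Both motifs can begin with TGAT, and no printed match of one shares bases with a printed match of the other. SLC1A2, SLC3A1, SLC7A2, SLC7A3, SLC7A4, SLC7A11, SLC7A13, SLC38A3 and SLC43A3 had no such window and were not searched. TGATGNAA was found in 3.62% of 35116 windows of all genes and in 11.3% of the members' windows, 6 windows of 6 members. Each match is given below on the strand of the gene with up to 11 bases on either side and the matched letters in capitals.
SLC1A3, chr5:36596357-36596386, plus strand: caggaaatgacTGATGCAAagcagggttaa
SLC1A4, chr2:64989381-64989410, plus strand: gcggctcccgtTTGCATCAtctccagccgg
SLC1A5, chr19:46784893-46784922, minus strand: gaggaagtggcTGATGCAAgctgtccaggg
SLC38A1, chr12:46266502-46266531, minus strand: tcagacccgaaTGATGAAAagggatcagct
SLC3A2, chr11:62881725-62881748, plus strand: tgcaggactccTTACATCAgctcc
SLC7A1, chr13:29595663-29595692, minus strand: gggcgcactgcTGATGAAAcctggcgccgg
In SLC1A4 and SLC3A2 the capitals are the motif read on the opposite strand. SLC1A3, SLC1A5 and, on the opposite strand, SLC1A4 hold the same 8 letters, and so do SLC38A1 and SLC7A1 with another form of the motif. The SLC1A3 match belongs to a RefSeq start that lies ahead of the gene as annotated in GENCODE 29 (chr5:36606355-36688334). The matches of SLC1A4, SLC1A5, SLC38A1 and SLC3A2 belong to RefSeq starts inside the annotated genes. These genes span chr2:64988477-65023865, chr19:46774883-46788594, chr12:46183063-46270017 and chr11:62856102-62888875. TPM per gene do not show which start was used.

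Of these 6 carriers, SLC1A3 rose, SLC1A5 was called with the block, SLC38A1, SLC3A2 and SLC7A1 did not pass in either model, and SLC1A4 was not tested. GATA letters were found in 25% of all windows and in 24.5% of the members' windows, from 11 members. SLC1A3 and SLC7A8 hold 2 such matches each, in 3 and 4 windows searched, and so do SLC36A2 and SLC36A4, which were not called, in 1 and 2 windows. The matches of the 2 members that rose are printed because GATA6 is the gene opposite the knocked-down RNA, and in the first of SLC7A8 the capitals are the motif read on the opposite strand.
SLC1A3, chr5:36606575-36606602, plus strand: ttaagttgcccTGATAGtaacttgcagt
SLC1A3, chr5:36606839-36606866, plus strand: gccattttggtAGATAAagtccttgtta
SLC7A8, chr14:23154606-23154633, minus strand: gttttctttgcCTATCAgcgccttttgg
SLC7A8, chr14:23155672-23155699, minus strand: attggtgtgtgAGATAGcaatttttcag
A match of letters is a description of the window and does not show binding by any factor.

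The heavy chain SLC3A2, which brings 6 of the light chains to the membrane, was at 74.7, 72.3 and 45.8 TPM in DE against 78.8, 81.7 and 54.4 TPM in KD. Replicate 3 was the lowest in both groups, the groups overlapped, and the log2 change of 0.17 did not pass (95% interval -0.37 to 0.70, limma adjusted p = 0.864). SLC3A1, the heavy chain of kidney and gut, reached 0.0704 TPM, and its light chain SLC7A9 reached 0.215 TPM. Neither gene of that pair was tested.

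Among the light chains for large neutral amino acids, SLC7A8 rose. It stood at 60.9, 62.0 and 65.2 TPM in DE against 86.4, 89.9 and 101 TPM in KD, or 62.7 ± 2.25 and 92.5 ± 7.71 TPM (SD, n = 3 each). The groups did not overlap, and replicate 3 was the highest library in both groups, which among the 29 members was also so for SLC38A7. The log2 change was 0.55 (SE 0.0961, 95% interval 0.32 to 0.78, limma adjusted p = 0.0297), with 2385 to 2611 reads in DE and 2918 to 4897 in KD. It was called in 9 of 18 alternative analyses, with log2 changes from 0.48 to 0.60 in all of them. The call was lost on leaving out DE replicate 1 (0.53, limma adjusted p = 0.162), DE replicate 2 (0.54, 0.0968), KD replicate 1 (0.60, 0.0858), KD replicate 2 (0.57, 0.145) or KD replicate 3 (0.48, 0.0904), and held without DE replicate 3 (0.58, 0.0357). Of the scalings, quantile normalization (0.54, limma adjusted p = 0.0644) and median-ratio scaling (0.56, limma adjusted p = 0.0764) lost it. The marker sums of endoderm and pluripotency moved with the groups here too, and their part in this result was not tested.

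SLC7A5 (LAT1), the light chain that carries leucine and other essential amino acids into growing cells, was at 229.5, 218 and 181 TPM in DE against 185, 194 and 161 TPM in KD. The groups overlapped, and the log2 change was -0.21 (SE 0.123), with limma adjusted p = 0.515 and 0.0551 with the block. SLC7A5P1, a copy of part of SLC7A5, was listed at 2.59 to 6.86 TPM, so reads may have been split between them. The ratio of SLC7A8 to SLC7A5 was 0.265, 0.284 and 0.361 in DE and 0.466, 0.462 and 0.629 in KD. The lowest KD ratio lay above the highest DE ratio, and replicate 3 gave the highest ratio in each group.

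Of the summed TPM of the 6 light chains of SLC3A2, SLC7A5 made up 68.8% to 73.2% in DE and 57.7% to 63.6% in KD. SLC7A8 made up 19.4% to 24.8% in DE and 29.4% to 36.3% in KD. Neither range overlapped between groups, and since these are shares of one sum, a larger share of one chain lowers the other. The 6 light chains together were 4.198, 4.202 and 5.74 times SLC3A2 in DE and 3.71, 3.74 and 5.12 times in KD. The groups overlapped through replicate 3, and within same-numbered pairs the KD value was 0.885, 0.890 and 0.891 of the DE value.

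**Figure D3:**
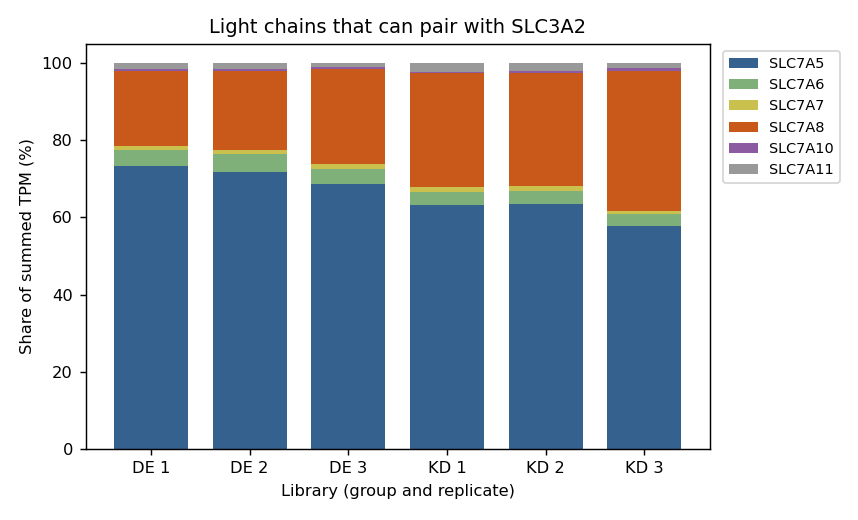
Share (%) of each light chain in the summed TPM of the 6 SLC7 light chains that can pair with SLC3A2, for each library. SLC7A5 takes 68.8% to 73.2% in DE and 57.7% to 63.6% in KD, and SLC7A8 takes 19.4% to 24.8% and 29.4% to 36.3%.

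The remaining light chains were less abundant. SLC7A11 (xCT), which imports cystine for glutathione synthesis, was at 4.36, 4.30 and 2.65 TPM in DE against 6.34, 5.89 and 3.62 TPM in KD. Replicate 3 of KD lay below replicates 1 and 2 of DE, and the log2 change of 0.39 did not pass (SE 0.237, limma adjusted p = 0.545, and 0.0679 with the block). SLC7A6 (y+LAT2), which exchanges arginine for neutral amino acids, had 13.4, 14.1 and 10.3 TPM in DE against 9.65, 10.3 and 8.74 TPM in KD. Its log2 change was -0.35 (limma adjusted p = 0.307, and 0.0501 with the block). Other genes share 55.6% of the exon bases of SLC7A6, with SLC7A6OS holding 44.4%, so its value is uncertain. SLC7A7 (y+LAT1), the relative of SLC7A6 known from epithelia, had 3.36 ± 0.426 TPM in DE against 3.07 ± 0.582 TPM in KD (SD, n = 3 each) and did not pass.

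In the SLC43 family, the uniporters SLC43A1 and SLC43A2 carry large neutral amino acids without a heavy chain. SLC43A2 (LAT4) was at 4.34, 4.54 and 2.92 TPM in DE against 6.27, 6.98 and 5.37 TPM in KD, without overlap. Its log2 change of 0.56 (SE 0.179) was close to that of SLC7A8 but with a wider spread, and it did not pass (limma adjusted p = 0.178), while it passed with the block (limma adjusted p = 0.0267). SLC43A1 (LAT3) had 7.98 ± 1.07 TPM in DE against 8.83 ± 0.940 TPM in KD (SD, n = 3 each) and did not pass. SLC43A3, a carrier of purine nucleobases despite its family name, had 2.101 ± 0.2997 and 2.87 ± 0.499 TPM, and 29.9% of its exon bases belong to another gene as well.

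Of the carriers for arginine and lysine, SLC7A3 (CAT3) was the most abundant by far, at 212, 238 and 173 TPM in DE against 172, 165 and 128 TPM in KD. Its groups did not overlap, with the lowest DE library just above the highest KD library. Its log2 change of -0.42 (SE 0.158, 95% interval -0.79 to -0.05) did not pass (limma adjusted p = 0.262) and was called lower with the block (limma adjusted p = 0.0107). SLC7A1 (CAT1), the carrier found in most tissues, had 32.7, 33.8 and 30.05 TPM in DE against 37.3, 37.8 and 36.2 TPM in KD, without overlap. Its log2 change of 0.20 (SE 0.0932) passed neither without the block (limma adjusted p = 0.376) nor with it (0.0874). The ratio of SLC7A1 to SLC7A3 was 0.154, 0.142 and 0.173 in DE and 0.217, 0.229 and 0.282 in KD, again without overlap. SLC7A2 (CAT2) had 8.39 ± 2.15 and 8.90 ± 1.498 TPM and did not pass.

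**Figure D4:**
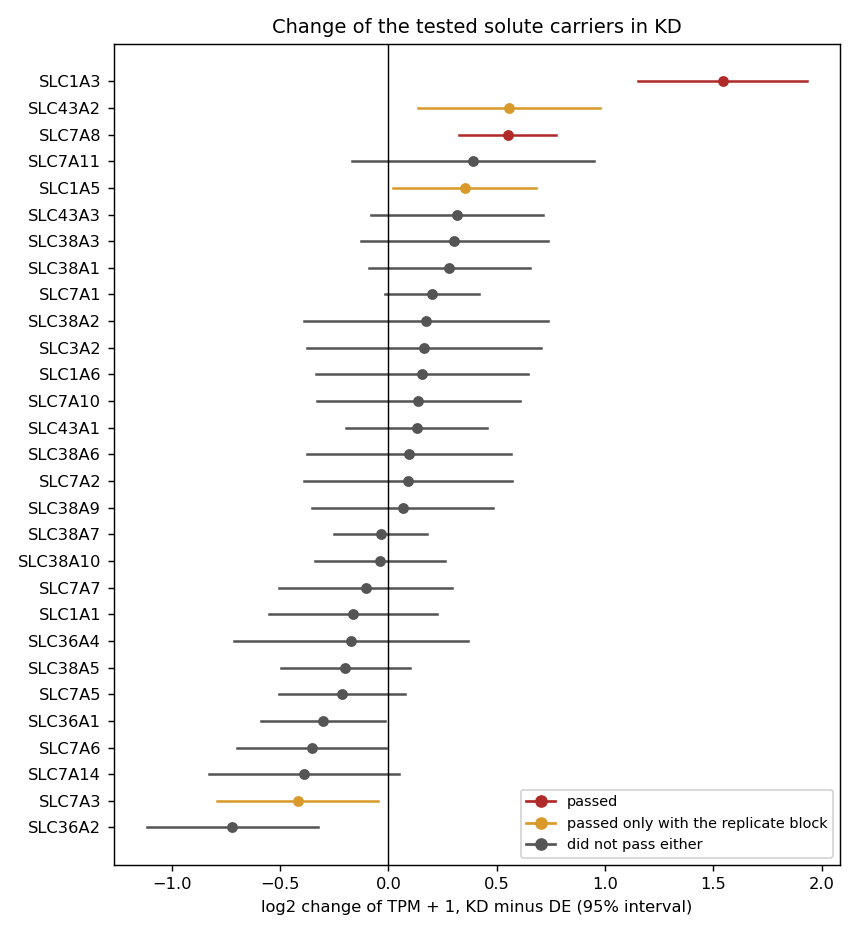
Log2 change of TPM + 1 (KD minus DE) with its 95% interval for the 29 tested solute carriers, ordered by size; red marks those called with group as the only term, yellow those called only with the replicate block. SLC1A3 at 1.54 stands apart, and SLC36A2 at -0.72 has the lowest estimate without being called. SLC36A2 could enter the test only by being higher in DE.

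System A and system N of the SLC38 family take up small neutral amino acids and glutamine. SLC38A2 (SNAT2), the system A carrier known to respond to amino acid supply, was at 189, 204 and 118 TPM in DE against 229, 195 and 147 TPM in KD. Its libraries overlapped widely, and the log2 change was 0.17 (95% interval -0.39 to 0.73, limma adjusted p = 0.862). SLC38A1 (SNAT1) was at 79.9, 89.0 and 60.6 TPM in DE against 98.2, 97.7 and 81.3 TPM in KD. The log2 change of 0.28 passed neither without the block (limma adjusted p = 0.4997) nor with it (0.0519). SLC38A5 (SNAT5) had 17.6 ± 1.72 and 15.2 ± 1.62 TPM, and SLC38A3 (SNAT3), the other system N carrier, had 2.17 ± 0.441 and 2.92 ± 0.598 TPM in DE against KD (SD, n = 3 each). The 4 tested genes of this group thus gave 0 calls in either model, and SLC38A4 (SNAT4), a carrier known from liver, reached 0.752 TPM and was not tested.

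Carriers of the lysosome feed amino acids back to the cytosol. SLC38A7 (SNAT7), which exports glutamine and asparagine, was among the steadiest members, at 22.7, 23.4 and 23.5 TPM in DE against 22.4, 22.2 and 23.1 TPM in KD. Its log2 change was -0.04 with a 95% interval of -0.25 to 0.18. SLC38A9, the arginine-gated carrier and sensor of the mTORC1 pathway, had 12.04 ± 2.29 TPM in DE against 12.6 ± 2.14 TPM in KD (SD, n = 3 each), with a log2 change of 0.07 (95% interval -0.35 to 0.48).

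SLC36 carriers move small amino acids together with protons. The 3 tested members all had a log2 change below 0 without a call in either model. For SLC36A2 that direction was fixed by the limit of 1 TPM, so only SLC36A1 and SLC36A4 bear on it. SLC36A1 (PAT1), of the lysosome and the plasma membrane, was at 33.3, 32.7 and 26.8 TPM in DE against 27.1, 23.9 and 23.5 TPM in KD. Its log2 change was -0.30 (limma adjusted p = 0.298, and 0.0514 with the block). SLC36A2 (PAT2), which carries glycine and proline in kidney, was at 1.77, 1.90 and 2.03 TPM in DE against 0.749, 0.9004 and 0.639 TPM in KD. These groups did not overlap, yet only 52 to 56 reads in DE and 18 to 25 in KD stood behind them, and the gene met the limit of 1 TPM in the DE libraries alone. Its log2 change on the TPM + 1 scale was -0.72 (SE 0.168, limma adjusted p = 0.0711, and 0.0592 with the block), while voom on the estimated reads, which adds no 1 to the TPM, gave -1.29 (adjusted p = 0.00709). SLC36A4 (PAT4) had 14.9 ± 3.97 and 13.0 ± 2.74 TPM (SD, n = 3 each), and SLC36A3 reached 0.0611 TPM. SLC36A1, SLC36A2 and SLC36A3 lie beside one another on chromosome 5 (151276762 to 151492381 in GRCh38, GENCODE 29), and their levels differed from 0.0611 TPM at most for SLC36A3 to 23.5 TPM or above for SLC36A1.

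Members without a settled substrate gave no calls. SLC38A10 had 24.2 ± 2.67 TPM in DE against 23.5 ± 2.44 TPM in KD, SLC38A6 had 2.85 ± 0.541 and 3.14 ± 0.767 TPM, and SLC7A14, a CAT-like protein of lysosomes, had 2.20 ± 0.467 and 1.43 ± 0.258 TPM (SD, n = 3 each). The log2 change of SLC7A14 was -0.39 (SE 0.187, limma adjusted p = 0.395). SLC7A4, SLC38A8 and SLC38A11 were not tested, with highest values of 0.191, 0.307 and 0.0319 TPM.

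By family, the summed TPM of SLC7 were 569, 589 and 474 in DE and 514, 520 and 452 in KD, and those of SLC38 were 354, 381 and 254 in DE and 412, 376 and 301 in KD. Both pairs of groups overlapped, while KD was lower in all 3 same-numbered pairs for SLC7 and higher in 2 of 3 for SLC38. SLC1 had 115, 125 and 89.7 TPM in DE against 145, 141 and 118 TPM in KD. Its groups overlapped as well, since KD replicate 3 lay under DE replicate 2, and KD was higher in all 3 pairs. The median log2 change was 0.25 over 4 tested SLC1 genes, 0.32 over 3 of SLC43 and 0.08 over 8 of SLC38. It was -0.01 over 10 of SLC7 and -0.30 over 3 of SLC36. The last includes SLC36A2, which could enter the test only by being higher in DE. By substrate, the sums of the cationic carriers were 253, 282 and 209 TPM in DE against 220, 212 and 172 TPM in KD, and those of the large neutral carriers 304, 292 and 256 TPM in DE against 288, 300 and 275 TPM in KD. KD was lower in all 3 pairs for the cationic carriers and higher in 2 of 3 for the large neutral ones. Each of these family and substrate sums is led by 1 or 2 genes described above.

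Other genes of amino acid supply and use were counted in 6 lists, 144 tested genes in all, with a gene of more than 1 list counted once. Of these, 4 rose (2.78%) and 1 fell (0.694%), against the 1.77% and 1.5% of all tested genes given above. With the block 22 were higher (15.3%) and 8 lower (5.56%), against 5.88% and 6.62%. The counts of single lists below are to be read against the same shares. Among 28 genes of the amino acid response, the ATF4 program switched on when amino acids are short, STC2 rose from 3.22 to 9.24 TPM (log2 change 1.29, limma adjusted p = 0.0131) and CTH, which makes cysteine from cystathionine, rose from 26.1 to 46.4 TPM (log2 change 0.81, limma adjusted p = 0.0354). The median of the list was 0.12, and 7 genes were higher and 1 lower with the block. ATF4, the factor of this program and named here although it did not pass, was at 519.6 TPM in DE against 547 TPM in KD, with a log2 change of 0.07.

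Among 35 enzymes of amino acid metabolism, 3 rose and none fell (7 and 0 with the block, median 0.08). These were CTH, GLDC of glycine breakdown, from 19.6 to 40.8 TPM (log2 change 1.02, limma adjusted p = 0.0109), and ASS1 of arginine synthesis, from 20.4 to 33.0 TPM (log2 change 0.66, limma adjusted p = 0.0269). The enzyme and response lists share genes. CTH, ASNS, PHGDH and PSAT1, all higher with the block, are counted in both, so the counts of the lists are not separate. Of 20 cytosolic tRNA synthetases, WARS, which loads tryptophan, fell from 101 to 73.3 TPM (log2 change -0.45, limma adjusted p = 0.0451), and none rose. With the block, 7 synthetases were higher and 1 lower, and the median of the list was 0.15. Of 34 tested genes of lysosomal amino acid sensing none passed, and with the block RRAGD was higher and RRAGB lower, both GTPases that recruit mTORC1 and named after their values were seen. None of 19 genes of glutathione synthesis and NRF2 response passed (1 higher and 2 lower with the block). The 20 tested amino acid carriers of other families likewise gave no call, with 3 higher and 3 lower with the block.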

How the data were processed

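The 6 libraries of total RNA reached GEO as a table of TPM made by the authors, with 58830 rows and a total of 1000000 per library. Tools in the submitters' processing notes are featureCounts, HISAT2 2.1.0 and DESeq2, and the build is GRCh38, without their roles. No source used here gives the annotation release, the strand setting or a filter. TPM relate a gene to its library's total, so a larger mitochondrial share lowers all other values.

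Members were the symbols of the 6 families followed by A and a number. Members and gene lists were chosen with earlier results of these data known. The test took genes that reached 1 TPM in 3 or more libraries and ran on log2(TPM + 1), a scale that understates changes of low genes, with limma 3.58.1 (R 4.3.3, eBayes with trend, 2-sided), adjusted by Benjamini-Hochberg over all 17711 genes, threshold 0.05. All adjusted p-values are limma's. No set test was run. Members named were those called in either model, the 12 most abundant, the heavy and light chains, and the rest by group means or highest TPM. Of each list, up to 4 called genes were named.

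The titles number replicates 1 to 3 in both groups. After removal of group means, the correlation over genes of libraries with the same number was 0.108, 0.144 and 0.347. Each exceeded the limit of 0.1, so values with the replicate block are given where they change a call. For the unmatched pair of DE replicate 2 with KD replicate 1 it was 0.121. The pairing comes from this check and not from a label.

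TPM keep no depth. Multiplied by GENCODE 29 exon length for 37138 matched symbols, low values came within 0.02 of whole multiples of 1 constant per library in 88.7% to 89.5% of cases, which gave the estimated reads. These served for depth and for 1 alternative (voom), added after the data were seen. The reads of SLC1A2 did not come out whole. Alternatives were pseudocounts of 0.1 and 0.5, no filter or a mean of 5 TPM, 3 other scalings, 2 variance models, the block, and libraries left out. The fit was tested on simulated data for KD against DE (14487 genes, 199 of them changed). It recovered 17.9% of changes of 0.5 on the log2 scale, 86.6% of changes of 1 and 93.8% of changes of 2, and made 15 false calls. Those false calls stand beside fewer than 199 correct ones, so they are not to be read as a share of 14487 genes. The simulated counts had the same relative spread setting for all genes and no replicate or mitochondrial difference. These shares therefore do not give the recovery in the real libraries. Promoter windows are RefSeq's. Python 3.11.15 with pandas 2.3.3 and matplotlib 3.10.9 served for the rest.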

Additional observations from a re-analysis of the deposited data

How the results depend on the processing

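Counts of members called higher (2) and lower (0) in KD were unchanged with pseudocounts of 0.1 or 0.5, a filter at a mean of 5 TPM and robust variance. Of all tested genes, 1.67% to 2.03% were higher and 1.43% to 2.13% lower in these settings. Members higher and lower numbered 1 and 0 without a filter (shares of all tested genes 0.357% and 0.289%). They numbered 3 and 4 with quantile normalization, 4 and 3 with median-ratio scaling and also without mitochondrial genes, against the shares given above. Without the trend 1 and 1 were called (1.85% and 1.46%). With the replicate block they were 4 and 1 (5.88% and 6.62%). Without replicate 3 of both groups 2 and 1 were called (2.86% and 3.98%), and with voom 4 and 4 (6.44% and 6.15%). Without SLC36A2, which could enter the test only by being higher in DE, fewer members were lower. They numbered 3 with quantile normalization, 2 with median-ratio scaling and without mitochondrial genes, 0 without the trend and 3 with voom. With 1 library left out, 1 to 2 were higher and 0 lower, 2 of them only without DE replicate 3 and otherwise 1, as SLC7A8 was lost. Of all tested genes, 0.344% to 1.4% were then higher and 0.136% to 2.04% lower. The replicate block changed no call of a member beyond SLC1A5, SLC43A2 and SLC7A3. SLC1A3 was called in every alternative, and no member called in any setting reversed its direction. Directions reversed, at no call, for 8 other members, whose log2 changes with 1 library left out were -0.068 to 0.35 for SLC38A2, -0.059 to 0.35 for SLC3A2, -0.078 to 0.18 for SLC38A9, -0.093 to 0.24 for SLC7A2, -0.027 to 0.26 for SLC38A6, -0.0080 to 0.24 for SLC7A10, -0.12 to 0.046 for SLC38A10 and -0.19 to 0.016 for SLC7A7. Without replicate 3 of both groups SLC7A10 was at -0.054. Of the other amino acid genes, 4 higher and 1 lower became 2 and 0 without a filter and 21 and 6 with quantile normalization. They became 20 and 7 with median-ratio scaling, 20 and 5 without mitochondrial genes and 4 and 0 without the trend. Their numbers were 22 and 8 with the replicate block, 10 and 5 without replicate 3 of both groups and 21 and 6 with voom. With 1 library left out they ranged from 0 to 3 and from 0 to 2. Calls over all tested genes also changed, from 314 higher and 265 lower to 860 and 875 with quantile normalization. The 2 did not move equally. With the block, the higher share of the 144 amino acid genes went from 2.78% to 15.3%, against 1.77% to 5.88% of all tested genes. On the lower side it went from 0.694% to 5.56%, against 1.5% to 6.62%. The counts of these amino acid genes are to be read against the shares of all tested genes given for each setting. GATA6-AS1 ranged from -1.38 to -1.11 with 1 library left out, and its call was lost without DE replicate 1 or KD replicate 2. The cause of these shifts was not tested. Estimated reads per library were 18 to 56 for SLC36A2, 20 to 47 for SLC7A10 and 45 to 93 for SLC38A3, which limits their precision.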
